A study of Mus musculus with 12 samples.

Results

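The MHC-I peptide processing machinery was followed here through 10 genes, Tap1, Tap2, Tapbp, Psmb8, Psmb9, Psmb10, Psme1, Psme2, Erap1 and Nlrc5, chosen by name out of 54232 genes in the count table. Each symbol matched 1 Ensembl identifier. RNA was sequenced from 12 libraries of B16F10, a melanoma cell line of C57BL/6 mice, in 4 groups of 3. The WT group was untreated B16F10 cells. The relapsed lines, ITF1, Rel and ITM, were cultures of B16F10 cells sorted from tumors that had grown back after immunotherapy in C57BL/6 mice, with 1 library per line. The labels do not name the regimen. By the study's methods, the immunotherapy combined an agonistic anti-CD40 antibody, TNFα and an antibody against the melanoma protein TRP1. The study also made lines from tumors that relapsed after transfer of T cells against the melanoma antigen gp100. The Lyso group was B16F10 cells exposed in culture to lysosomes, or secreted granules, derived from T cells, for 48 hours by the labels and for a shorter time by the study's methods. The Tumor group, numbered 1, 3 and 4, was B16F10 cells sorted by flow cytometry from relapsed tumors, with RNA extracted directly. The labels give an age of 6 weeks for all 12 libraries, those of cultured cells included, whereas the study's methods give older mice. No source used here states whether the 3 WT or the 3 Lyso libraries came from separate cultures. The p-values may therefore measure technical spread only. Lyso 2 and Lyso 3 differed little beyond counting error, with a chi-square of their counts per degree of freedom of 1.58. For Lyso 1 against Lyso 2 and Lyso 3 it was 12.78 and 12.45, so the 3 may not be equal replicates.

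Cells show peptides of their own proteins on MHC class I molecules, where CD8+ T cells inspect them. Proteasomes cut the proteins, and under interferon-γ the catalytic subunits of the constitutive proteasome are replaced by the inducible subunits Psmb8, Psmb9 and Psmb10, forming the immunoproteasome, on which the PA28 activator (Psme1 and Psme2) can dock. The TAP transporter (Tap1 and Tap2) carries the peptides into the endoplasmic reticulum, Erap1 trims them, tapasin (Tapbp) helps load them onto MHC-I, and Nlrc5 is a transactivator of MHC-I genes and several of these partners. B16F10 cells in culture are known for low MHC-I that interferon-γ raises.

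Several of the 10 genes are neighbours in the genome. In the GENCODE annotation of GRCm38, Psmb9, Tap1, Psmb8 and Tap2 follow each other in the MHC region at chr17:34181987-34216321, and Tapbp lies at chr17:33915899-33929292. Psme1 and Psme2 are close to each other at chr14:55578123-55591113. Psmb10 (chr8:105935735-105938444), Nlrc5 (chr8:94434356-94527272) and Erap1 (chr13:74639568-74693201) stand apart. Tap1 and Psmb9 point away from each other, with RefSeq start positions 226 bases apart. The strand setting of the counts is not given in the sources used here, so reads of a gene on the opposite strand may be included. The exonic share overlapped by such a gene was 24.9% for Tapbp, 18.5% for Tap2, 14.7% for Psmb8, 11.5% for Erap1 and at most 5.8% for the others.

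The windows around RefSeq starts on GRCm38.p6, from 250 bases before to 50 after, were matched for 8 of the 10 genes and searched on both strands for the letters of 2 elements that interferon-activated factors are known to bind. GAAA, any 2 bases and GAAA again, the letters of an interferon-stimulated response element, were found near the starts of Erap1 and Psme1, and in 3.44% of all 32851 windows. TTCNNNGAA, the letters of a gamma-activated site, were found before the start of Psmb8, and in 8.3% of all windows. No match of the 2 overlapped. No match was found for Tap1, Tapbp, Psmb9, Psmb10 and Psme2. The 3 sites are shown as the only matches, with the match in capitals and 10 bases on either side. All 3 read along the plus strand, and the first 2 hold the element in reverse complement.
Erap1, chr13:74639839-74639868: ccaccttcacTTTCACTTTCggtcccgggc
Psme1, chr14:55578493-55578522: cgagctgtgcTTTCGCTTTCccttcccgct
Psmb8, chr17:34198088-34198116: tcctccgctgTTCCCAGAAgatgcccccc
These are matches of letters in a window and no measurement of binding. Tap2 and Nlrc5 had no window in the table used.

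The depth, counted on genes, was uneven. WT 1, WT 2 and WT 3 held 1667398, 2350129 and 16384021 counts, the Tumor libraries 3102442 to 5049496, and the Lyso libraries and relapsed lines 10895611 to 16402629. Values are given in CPM, the counts of a gene scaled to the library's total on genes with TMM factors. A count of 3, taken as the floor, stood for 1.80 CPM in WT 1 and 0.183 CPM in WT 3 before TMM factors, by counting error only. All 10 melanocyte marker genes were above the floor in all 12 libraries. The Tumor libraries also held markers of other cells: 10 fibroblast genes summed to 7696 to 10694 CPM, against 30.0 to 39.4 CPM in WT, and 10 myeloid genes to 48.4 to 79.2 CPM, against 12.4 to 29.2 CPM. The 8 endothelial genes summed to 54.3 to 59.7 CPM in Tumor, against 13.5 to 24.9 CPM in WT. In Lyso, myeloid genes summed to 33.4 to 37.1 CPM, within the 12.6 to 46.9 CPM of the relapsed lines. Cd68, among them, had 213, 205 and 213 counts in Lyso 1, 2 and 3, but also 282 in WT 3 and 454 in ITF1. Itgam, C1qa and C1qb had no counts in Lyso, so this sum does not show myeloid cells there. The 4 B cell genes summed to 2.83 to 5.58 CPM in Lyso, against at most 0.422 CPM in WT. Fewer cells of a type and less RNA per cell cannot be told apart in such bulk samples.

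All 10 genes were higher in Lyso than in WT, and 8 of the 10 in Tumor, whereas none passed the test in the relapsed lines. Genes were called changed at an adjusted p under 0.05 in edgeR's quasi-likelihood test with Benjamini-Hochberg adjustment and a log2 fold change over 1 in either direction. Adjusted p-values below are from that test, and SE is the standard error of a log2 fold change. Among the 14924 genes tested, 2.43% were called higher in Lyso than in WT, 8.56% in Tumor and 0.0134% in the relapsed lines, where a further 0.0268% were called lower. The libraries did not overlap WT for 10 of the 10 genes in Lyso, as for 15.8% of all genes tested, and for 7 of the 10 in Tumor, as for 21% of them. The median log2 fold change of the 10 genes was 3.71 in Lyso, 2.22 in Tumor and 0.29 in the relapsed lines, and that of all genes tested was within 0.01 of 0 in each. Mean levels stood in the order Lyso, Tumor, relapsed lines, WT for 7 genes. Psmb8 and Psmb9 were led by Tumor, and Psmb10 had its lowest mean in the relapsed lines.

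**Figure D1:**
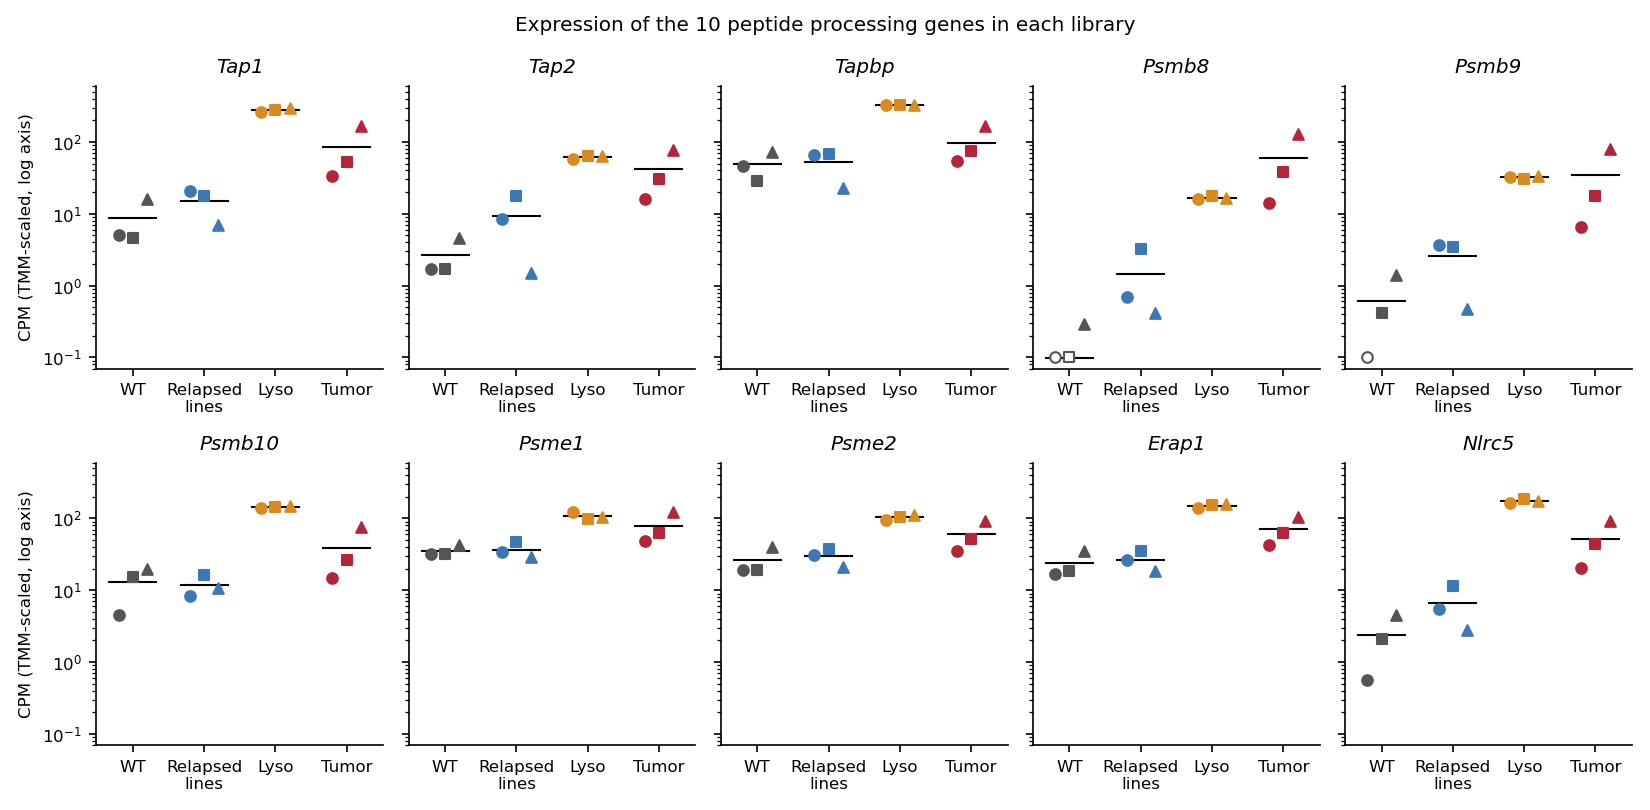
Level of each of the 10 genes in every library, in CPM on a log axis, by group. Each symbol is a library (circle, square and triangle are WT, Lyso 1, 2 and 3, ITF1, Rel and ITM, and Tumor 1, 3 and 4), the black line is the group mean, and open symbols are libraries with a count of 0, drawn at 0.1 CPM. The Lyso libraries lie close together, and Tumor 4 is the highest Tumor library for 10 of 10 genes.

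Both subunits of the peptide transporter rose in Lyso and in Tumor. Tap1, the first subunit, was at 5.09, 4.64 and 16.1 CPM in WT 1, 2 and 3. It was at 262, 277 and 299.8 CPM in Lyso 1, 2 and 3, and at 33.1, 52.5 and 169 CPM in Tumor 1, 3 and 4. The lowest Lyso library was thus 16.3 times the highest WT library, and the lowest Tumor library 2.06 times. Fitted against WT, the log2 change was 4.70 in Lyso (SE 0.64, adjusted p = 0.00111) and 2.99 in Tumor (SE 0.62, adjusted p = 0.00485). In the relapsed lines, Tap1 was at 21 CPM in ITF1, 17.6 in Rel and 6.94 in ITM. These overlapped the WT values, and the log2 fold change was 0.49 (SE 0.61, adjusted p = 0.805).

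Tap2, the partner of Tap1 in the transporter, had a lower mean level per exonic length than Tap1 in all 4 groups. WT 1, 2 and 3 had 1.70, 1.69 and 4.53 CPM, against 58.3, 64.2 and 64.0 CPM in the Lyso libraries and 16.2, 30.4 and 77.3 CPM in Tumor 1, 3 and 4. No library of either group overlapped WT, and Tap2 rose by 4.15 on the log2 scale in Lyso (SE 0.80, adjusted p = 0.0102) and by 3.57 in Tumor (SE 0.81, adjusted p = 0.00816). The relapsed lines differed among themselves, with 8.43 CPM in ITF1, 17.8 in Rel and 1.5 in ITM. As point values, ITM was below all WT libraries, and ITF1 and Rel were above them. ITM lay within the exact 95% Poisson intervals of WT 1 (0.350 to 4.96 CPM) and WT 2 (0.460 to 4.32 CPM), so its place below them was not resolved.

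Tapasin, the loading factor encoded by Tapbp, separated Lyso from Tumor. Its WT levels were 45.8, 28.7 and 72.7 CPM. The Lyso libraries stood at 328, 325 and 329 CPM, a log2 fold change of 2.69 (SE 0.47, adjusted p = 0.00547). Tumor 1, 3 and 4 had 54.5, 75.4 and 164 CPM, which overlapped WT, and the log2 fold change of 0.95 did not pass (SE 0.45, adjusted p = 0.170). Between Tumor and Lyso the groups did not overlap, and Tapbp was lower in Tumor by a log2 fold change of -1.74 (SE 0.44, adjusted p = 0.0124).

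Of the inducible catalytic subunits of the immunoproteasome, Psmb8 and Psmb9 were close to absent in WT. Psmb8, the inducible counterpart of Psmb5, had counts of 0, 0 and 5 in WT 1, 2 and 3. The exact 95% Poisson intervals reached up to 2.09 CPM in WT 1, up to 1.56 CPM in WT 2, and from 0.0956 to 0.687 CPM in WT 3. Lyso 1, 2 and 3 had 16.1, 17.5 and 16.6 CPM and Tumor 1, 3 and 4 had 14.0, 37.8 and 128 CPM, so both groups lay above all WT intervals. The fitted log2 fold changes of 6.10 in Lyso (adjusted p = 0.0130) and 7.95 in Tumor (adjusted p = 0.000518) depend on the prior added to such low counts. The lowest Tumor library was 47.4 times the highest WT library, and the lowest Lyso library 54.7 times. In the relapsed lines Psmb8 was at 0.690, 3.21 and 0.419 CPM in ITF1, Rel and ITM. These point values were above those of WT, as for 6.43% of all genes tested and no other of the 10, but ITF1 and ITM lay within the counting intervals of WT 1 and WT 2. Its test there gave an adjusted p of 0.570 (edgeR).

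Psmb9, the inducible counterpart of Psmb6, had counts of 0, 1 and 24 in the WT libraries, or at most 1.41 CPM. It reached 32.2, 30.8 and 33.2 CPM in Lyso and 6.49, 17.7 and 78.7 CPM in Tumor 1, 3 and 4. Its log2 fold changes were 4.87 in Lyso (SE 1, adjusted p = 0.0140) and 4.98 in Tumor (SE 1.01, adjusted p = 0.00411). The Tumor libraries lay on both sides of the Lyso libraries, and the difference between these groups was 0.11 (SE 0.67, adjusted p = 0.925). Without Tumor 4 it was -1.36 and not called. Without WT 3, Psmb8 and Psmb9 were not called in Lyso against WT, and without WT 2 Psmb9 was not.

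Psmb10, the inducible counterpart of Psmb7, was already present in WT at 4.52, 15.2 and 19.8 CPM. Lyso 1, 2 and 3 were far above at 139, 145 and 150.3 CPM, with a log2 fold change of 3.27 (SE 0.52, adjusted p = 0.0032). Tumor 1 had 14.6 CPM, within the WT values, and Tumor 3 and 4 had 26.7 and 76.2 CPM. The log2 fold change of 1.40 in Tumor missed the threshold (SE 0.52, adjusted p = 0.0799). Leaving out 1 library moved it from 0.50, without Tumor 4, to 1.93, with adjusted p from 0.0266 to 0.482, and it was called in 1 of these 6 fits, that without Tumor 1.

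Set against the constitutive subunit it replaces, each inducible subunit can be read within 1 library, free of scaling between libraries. Per exonic length, and with 0.5 counts added to each gene, Psmb8 came to 0.156%, 0.127% and 0.205% of Psmb5 in WT 1, 2 and 3. Psmb8 had counts of 0 in WT 1 and WT 2, so the percentages there are set by the added 0.5 counts and the depth. The ratio of Psmb8 to Psmb5 was 10.8%, 9.78% and 9.96% in Lyso, and 13.1%, 29.1% and 109.7% in Tumor 1, 3 and 4. Only in Tumor 4, among the 12 libraries, was there as much Psmb8 as Psmb5. Psmb9 reached 9.59%, 8.37% and 9.04% of Psmb6 in Lyso and 2.42%, 6.43% and 25.7% in Tumor. Psmb10 exceeded Psmb7 in Lyso, at 119.4%, 124.3% and 121.6%, where WT had 4.94%, 11.1% and 18.6% and Tumor 17.3%, 29.9% and 81.7%. The lengths count all annotated exons of a gene, so these percentages rank libraries better than they measure protein subunits.

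The mean log2 ratio against WT differed by 7.76 in Tumor and 5.99 in Lyso for Psmb8 to Psmb5, by 5.4 and 5.69 for Psmb9 to Psmb6, and by 1.79 and 3.6 for Psmb10 to Psmb7. With 3 libraries against 3, a two-sided exact permutation test cannot go below p = 0.1, and it gave 0.1 in each of these 6 comparisons but Psmb10 to Psmb7 in Tumor, where the exact p was 0.2. In the relapsed lines the differences were 2.05 for Psmb8 (exact p = 0.1), 1.73 for Psmb9 (exact p = 0.3) and 0.10 for Psmb10 (exact p = 1.0). In every group, the differences for Psmb8 and Psmb9 rest in part on WT libraries with counts of 0. Psmb8 had 0 in WT 1 and WT 2, and Psmb9 in WT 1, so the sizes of these differences are uncertain. Adjusted over the 9 comparisons by the Benjamini-Hochberg method, no p was below 0.15. The constitutive subunits moved little: of 14 genes of the constitutive 20S core, 0 were called in any of the 6 comparisons. Psmb5 was nevertheless lower in Tumor than in WT, by a log2 fold change of -0.49 (adjusted p = 0.0173), short of the fold required.

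**Figure D2:**
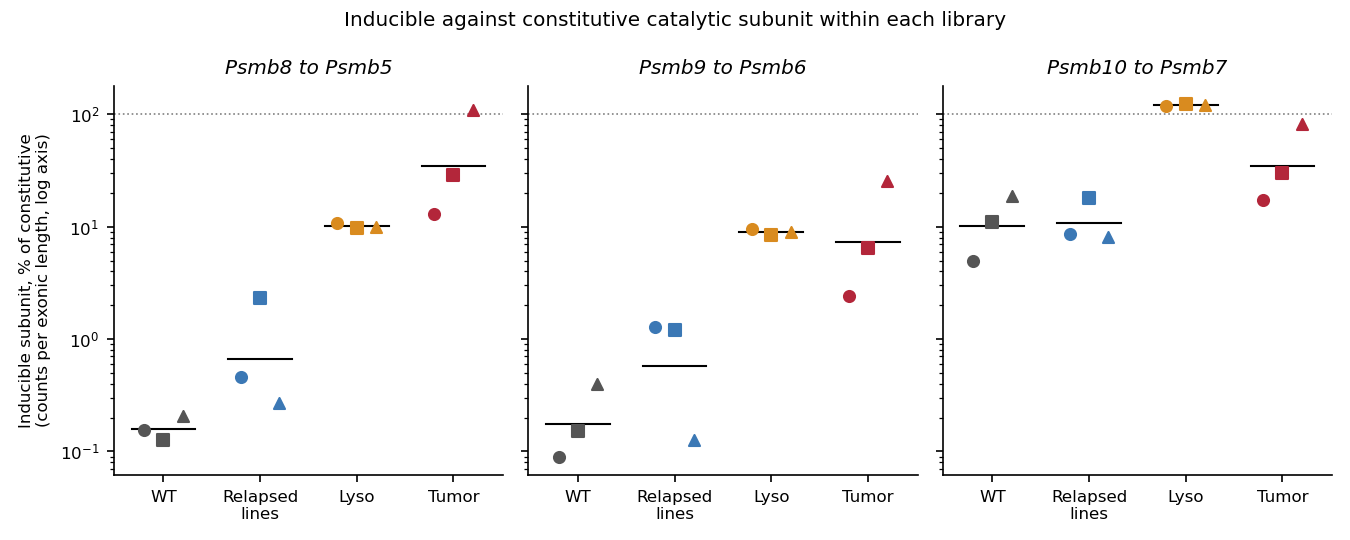
Inducible subunit as a percentage of its constitutive counterpart in each library, per exonic length, on a log axis. Circle, square and triangle are WT 1, 2 and 3, ITF1, Rel and ITM, Lyso 1, 2 and 3, and Tumor 1, 3 and 4, black lines are the means of the log ratios, and the dotted line marks 100%. All Lyso libraries stand above that line for Psmb10, and 1 Tumor library, Tumor 4, for Psmb8.

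The PA28 activator genes changed least in Lyso. Psme1, encoding PA28α, had 31.7, 31.6 and 43.1 CPM in WT, 124, 98.7 and 105 CPM in Lyso, and 47.7, 62.7 and 121 CPM in Tumor 1, 3 and 4. Neither group overlapped WT, and the log2 fold changes were 1.58 in Lyso (SE 0.30, adjusted p = 0.00935) and 1.09 in Tumor (SE 0.30, adjusted p = 0.0245). Psme2, encoding PA28β, had 19.2, 19 and 40.4 CPM in WT and 93.6, 104 and 111 CPM in Lyso, a log2 fold change of 1.86 (SE 0.35, adjusted p = 0.00890). Its Tumor values of 35.4, 52.3 and 92.4 CPM overlapped WT 3, and the log2 fold change of 1.09 passed narrowly (SE 0.36, adjusted p = 0.0489). Without WT 1, WT 2 or Tumor 4, neither gene was called in Tumor, and without Tumor 3, Psme2 was not.

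Erap1, the aminopeptidase that trims peptides in the endoplasmic reticulum, had 17.0, 18.6 and 35.6 CPM in WT. It rose to 138, 154 and 157 CPM in Lyso and to 42.8, 63.1 and 104 CPM in Tumor 1, 3 and 4, with no overlap with WT. The log2 fold changes were 2.54 (SE 0.34, adjusted p = 0.000989) and 1.46 (SE 0.34, adjusted p = 0.00974). Nlrc5, the transactivator, had counts of 1, 5 and 76 in WT, or 0.565, 2.11 and 4.48 CPM. It stood at 164, 185 and 173 CPM in Lyso and at 20.1, 43.6 and 91.4 CPM in Tumor. Its log2 fold change of 5.66 in Lyso (SE 0.65, adjusted p = 0.000425) had the smallest adjusted p of the 10 genes, and that in Tumor was 3.92 (SE 0.65, adjusted p = 0.00114).

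**Figure D3:**
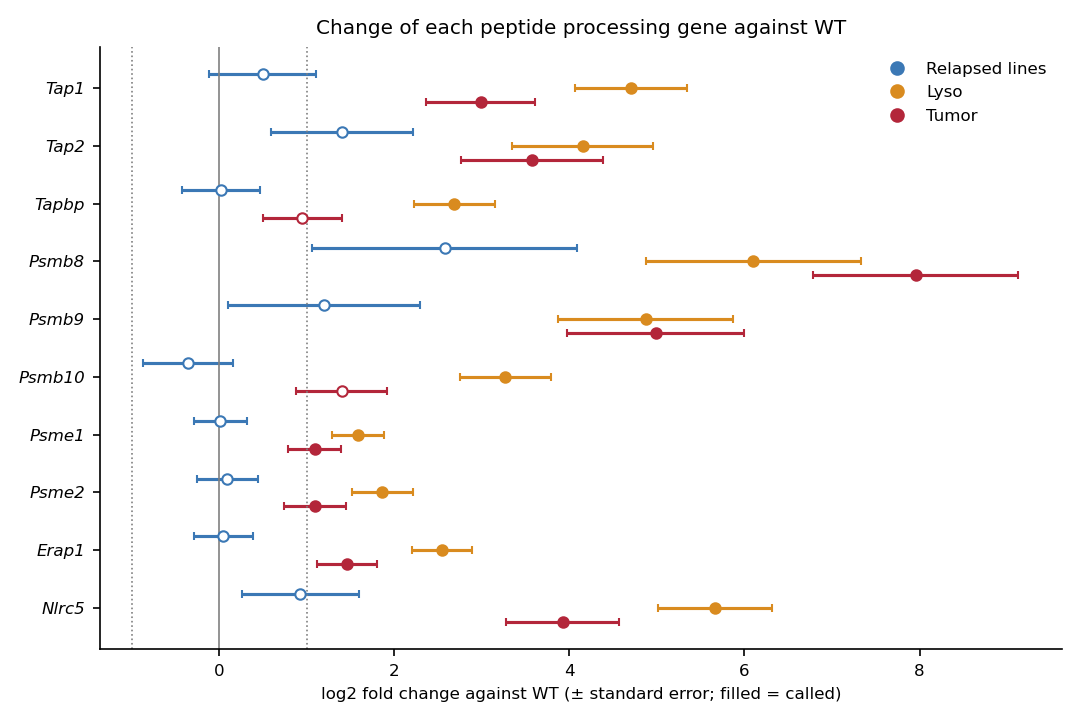
Log2 fold change of each gene against WT in the relapsed lines, Lyso and Tumor, from 1 edgeR fit of all 12 libraries. Points are fitted values, bars are standard errors, filled points passed the threshold, and dotted lines mark -1 and 1. All 10 Lyso points and 8 of the 10 Tumor points are filled, and none of the relapsed lines.

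Read per kilobase of exon, the balance within the machinery shifted between groups. In WT, Psme1 led at 16.1 ± 3 CPM per kilobase (SD, n = 3), followed by Psme2 at 14.9 ± 6.97 and Tapbp at 13.5 ± 6.11, whose ranges overlapped, while Nlrc5 was at 0.281 ± 0.232 and Psmb8 last at 0.0290 ± 0.0503. In Lyso, Tapbp led at 90.3 ± 0.488 CPM per kilobase (SD, n = 3), and Psmb10 followed at 84.8 ± 3.43, with no overlap. Psme2, Tap1 and Psme1 came next at 58.4 ± 5.08, 51.0 ± 3.48 and 49.4 ± 6.07, and did not differ beyond their spread. Psmb8 was last in Lyso at 4.95 ± 0.208. In Tumor, Psme1 led again at 35.0 ± 17.6 CPM per kilobase (SD, n = 3), Psmb8 followed Psmb10 at 17.8 ± 17.8, Nlrc5 was last at 6.09 ± 4.28, and each gene's range overlapped the next.

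The Tumor and Lyso groups differed from each other in 5 of the 10 genes. Tap1, Tapbp, Psmb10, Erap1 and Nlrc5 were lower in Tumor, where 4.14% of all genes tested were, with log2 fold changes of -1.71 (adjusted p = 0.0336), -1.74 (0.0124), -1.87 (0.0117), -1.09 (0.0244) and -1.74 (0.0195) in edgeR. None was called higher, where 8.78% of all genes tested were. All Tumor libraries lay below all Lyso libraries for 6 of the 10 genes, these 5 and Psme2, and for 26.8% of all genes tested. Psmb8 had a log2 fold change of 1.85 (SE 0.64, adjusted p = 0.0510). Tap2, Psme1 and Psme2 missed the threshold, at log2 fold changes of -0.58, -0.49 and -0.77 (SEs 0.62, 0.29 and 0.33, adjusted p = 0.541, 0.233 and 0.110). These calls were fragile: between 0 and 6 genes were called when 1 library was left out, 3 without Lyso 1, 2 without Lyso 2, Lyso 3 or Tumor 1, and 0 without Tumor 3. Without Tumor 1, Psmb8 was called higher in Tumor.

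Against the relapsed lines, Lyso was higher in 10 of the 10 genes, by log2 fold changes from 1.57 for Psme1 to 4.73 for Nlrc5, where 3.21% of all genes tested were, and the libraries did not overlap for any of the 10, as for 15.3% of all genes tested. Tumor was higher in 8 of the 10, where 8.36% were, by up to 5.38 for Psmb8, and Tapbp (adjusted p = 0.165) and Psme2 (adjusted p = 0.0554) did not pass. Comparisons with a group in common share its libraries and are not independent of each other. Without ITF1 or without Tumor 4, Tumor differed from the relapsed lines in 5 genes, Erap1, Nlrc5, Psmb8, Psmb9 and Tap1. Without ITM it differed in 6, the same 5 and Tap2, and without Tumor 3 in 7, with Tap2 lost. Tap2 was also lost in Lyso against the relapsed lines without ITF1, Lyso 1, Lyso 2 or Lyso 3.

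In the relapsed lines, 0 of the 10 genes were called against WT. The same comparison had 0 of the 10 at an unadjusted p under 0.05 in edgeR, and DESeq2 called 0, with 1 gene under an unadjusted p of 0.05. The largest log2 fold changes were 2.57 for Psmb8 and 1.40 for Tap2, with SEs of 1.51 and 0.81, so that changes of that size were not resolved with these libraries. Psmb10 was at -0.35 (SE 0.51), and Tapbp, Psme1, Psme2 and Erap1 lay between 0.01 and 0.09. The 3 lines differed: Rel was above ITM in 10 of 10 genes, by 3.49 on the log2 scale for Tap2, 2.66 for Psmb8, 2.61 for Psmb9 and 2.01 for Nlrc5, and ITF1 was above ITM in 9 of 10. ITM was the lowest line for 9 of the 10 genes, as it was for 38.0% of all genes tested. With 1 library per line these differences have no replicate check.

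The 10 genes moved together between libraries of 1 group as well. In Tumor, the order Tumor 1, Tumor 3, Tumor 4 from lowest to highest held for 10 of 10 genes, while Tumor 4 was highest for 33.9% and Tumor 1 lowest for 37.5% of all genes tested. The log2 difference of Tumor 4 over Tumor 1 ran from 1.28 for Erap1 to 3.58 for Psmb9, with a median of 2.21, against 0.005 for all genes tested. WT 3 was the highest WT library for 10 of 10 genes, and for 28.9% of all genes tested. The median spread between the highest and lowest library, on the log2 scale, was 1.57 in WT, 1.56 in the relapsed lines and 2.21 in Tumor for the 10 genes, against 0.582, 0.491 and 0.331 for all genes tested. In Lyso it was 0.159, against 0.231. Summed myeloid markers followed the same order as the genes in Tumor, at 48.4, 65.9 and 79.2 CPM in Tumor 1, 3 and 4. So did the melanocyte markers, at 20517, 22110 and 22627 CPM. The dendritic cell markers rose in that order too, at 0.649, 0.804 and 1.65 CPM. Of these 4 genes, 0 were above the floor in Tumor 1 and Tumor 3 and 1 in Tumor 4, so their order was not resolved. Summed fibroblast markers ran the other way, at 10694, 8732 and 7696 CPM, as did the endothelial markers, at 59.7, 58.1 and 54.3 CPM. Of the 12 T and NK cell markers, 3 were at 0 in all Tumor libraries, Cd3e among them, and their sum was 3.82 to 9.87 CPM, and 14.6 to 17.9 CPM in Lyso against 1.26 to 6.78 CPM in WT. The part of these cells in the levels of the 10 genes was not tested.

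Depth and group are partly confounded, so the deep groups were also set against the deep WT library. Against WT 3 alone, which had the highest levels of the 10 genes in WT, the log2 fold changes in Lyso ran from 1.34 to 5.77, over 1 for 10 of 10 genes. Only 3, Tap1, Erap1 and Nlrc5, were then called (adjusted p of 0.0485, 0.0410 and 0.0214), with a lone WT library assumed to vary like the other groups. In the relapsed lines, 4 of the 10 genes were above WT 3 and 6 below, and 0 were called. The shallow Tumor libraries were set against the shallow WT 1 and WT 2, and the same 8 genes were called, with log2 fold changes from 1.29 to 12.03 over all 10.

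The rest of the pathway was followed in 72 further genes, and few of them moved with the 10. In Lyso, 3 of the 72 were called higher than in WT and 0 lower, against 2.43% and 0.576% of all genes tested. They were Tapbpl, a relative of tapasin, at 87.0, 91.5 and 82.9 CPM against 6.22, 7.17 and 7.42 CPM in WT (log2 fold change 3.61, adjusted p = 0.000104), and the transcription factors Irf1 and Irf2, at log2 fold changes of 5.89 (adjusted p = 0.000193) and 1.64 (adjusted p = 0.000256). Irf1, which interferon-γ is known to induce, stood at 657, 745 and 757 CPM in Lyso. In Tumor, 5 of the 72 were called higher, Tapbpl, Irf1, and the MHC-I chain genes H2-K1, H2-D1 and B2m, and 1 lower, against 8.56% and 2.2% of all genes tested. The lower gene was Psmg3, a proteasome assembly chaperone with a log2 fold change of -1.01 (adjusted p = 0.0304). In the relapsed lines 0 were called. Leaving out WT 2 or Tumor 4 left 3 higher in Tumor and 0 lower, and leaving out WT 3 gave 5 higher in Lyso.

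Of the 3 MHC-I chain genes, 2 were higher in Tumor than in Lyso. H2-K1 stood at 42.4, 44.1 and 44.0 CPM in Lyso and at 219, 372 and 725 CPM in Tumor 1, 3 and 4, and was higher in Tumor than in Lyso by a log2 fold change of 3.34 (SE 0.69, adjusted p = 0.00345). H2-D1 was higher by 2.09 (SE 0.48, adjusted p = 0.0063). B2m, the light chain, was not called, at 0.79 (SE 0.47, adjusted p = 0.243), and its libraries overlapped. In the same comparison 5 of the 10 processing genes, Tap1, Tapbp, Psmb10, Erap1 and Nlrc5, were lower, as were Tapbpl, Irf1 and Irf2, while Psmb8 (1.85) and Psmb9 (0.11) were not called. Against WT, 0 of the 3 chain genes were called in Lyso, although their libraries did not overlap (adjusted p from 0.253 to 0.740). H2-K1 and H2-D1 resemble other MHC-I genes, and the counts leave out reads with more than 1 matching gene, so their levels are uncertain.

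Among other factors upstream of the machinery, Irf9, a subunit of an interferon-activated complex, had 7.91, 4.64 and 55.9 CPM in WT 1, 2 and 3, so that WT 3 stood far above the other 2. It was at 60.6, 66.2 and 64.2 CPM in Lyso, a log2 fold change of 1.22 that was not called (SE 0.65, adjusted p = 0.342), and at 22.4, 24.9 and 44.7 CPM in Tumor, within the WT range. Subunits of the RFX and NF-Y complexes, with which Nlrc5 acts at MHC-I promoters, were not called in either comparison against WT. None of the 17 genes of the 19S cap of the proteasome and none of the general chaperones Calr, Canx and Pdia3 were called in any of the 6 comparisons.

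**Figure D4:**
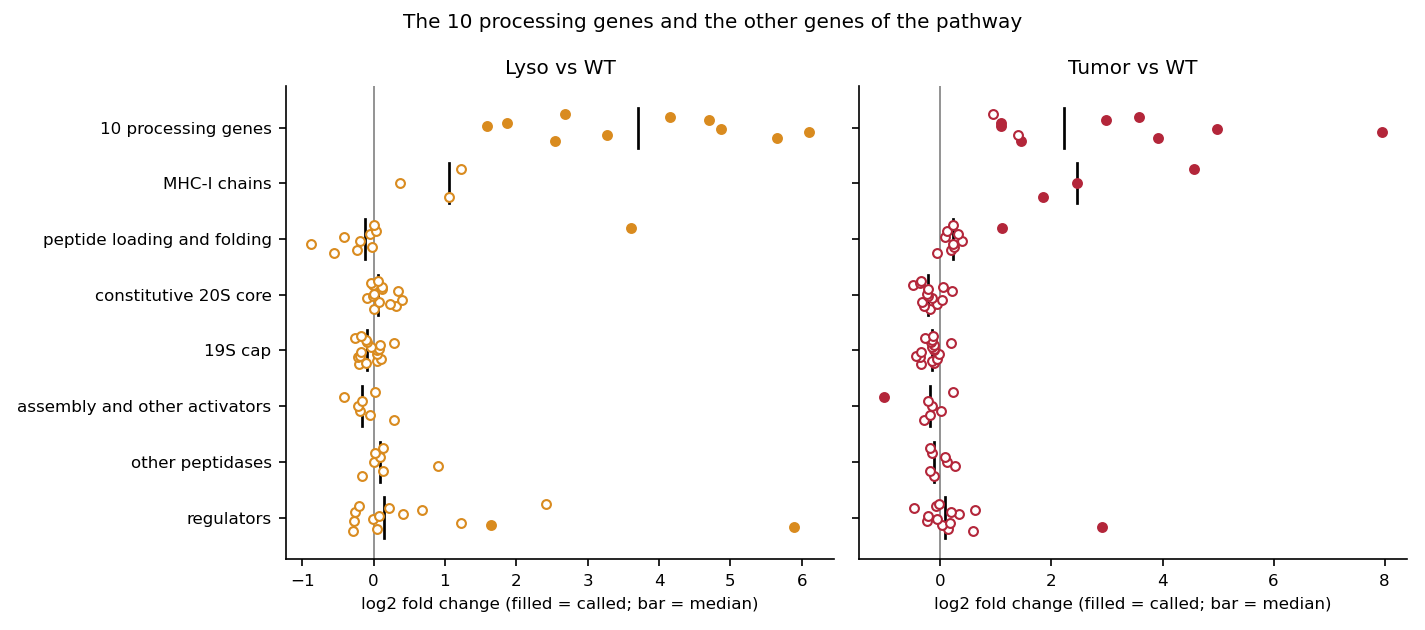
Log2 fold change against WT of the 10 processing genes and of 72 other genes of the pathway in 7 lists, in Lyso and in Tumor. Each point is a gene, filled where called, and the bar is the list's median. The 14 core and 17 cap genes of the proteasome lie near 0, while the 10 processing genes spread from 1.58 to 6.10 in Lyso and from 0.95 to 7.95 in Tumor.

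The genes whose levels ran most like those of the 10 were sought among all genes tested, by the root mean square difference of centred log2 levels over the 12 libraries. Closest to the mean of the 10 was Cd274, encoding PD-L1, with a difference of 0.486, and means of 5.98 CPM in WT, 16.5 in the relapsed lines, 187 in Lyso and 45.4 in Tumor. Next came 9930111J21Rik2, Sp110, Stat3 and Ccrl2, with differences of 0.628, 0.628, 0.632 and 0.639. Stat3 had means of 53.7, 74.0, 553 and 288 CPM in the same order. Closest to Nlrc5 were Ifi47 (0.471) and 9330175E14Rik (0.528), of which the latter overlaps Nlrc5 on the opposite strand, so that reads may be shared.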

How the data were processed

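The authors trimmed adaptors with fastp 0.19.6, aligned reads to GRCm38 with STAR 2.7.1a and deposited raw counts per gene, with DESeq2 1.24.0 named among their tools. The counts are not normalized, and the annotation release and strand setting are not given in the sources used here. Reads on no feature made up 43.53% to 44.77% of each library, and reads on several genes are not counted.

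Groups were taken from the labels. Symbols came from GENCODE M21, which holds 54165 of 54232 identifiers. All 12 libraries were fitted together with edgeR 4.0.16 in R 4.3.3 (TMM, filterByExpr by group, glmQLFit and glmQLFTest, Benjamini-Hochberg), after a test on simulated data. All 10 genes passed the filter. A standard error was taken as the fitted log2 change divided by the root of its F statistic. DESeq2 1.42.0, other scalings, filters and thresholds, subsets of the groups, a replicate block and left-out libraries were alternatives. Other steps used Python 3.11.15. Whether replicate numbers shared by WT, Lyso and Tumor mark a common animal or culture is not stated in the sources used here.

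The 10 genes, the lists and the tests were chosen with earlier results of these data known. The text names every one of the 10 genes, the genes called among the 72 others in the comparisons described, apart from 1 that is not reported here, those that carry a contrast with them, and the closest genes by profile, 5 for the mean of the 10 and the first 2 of 5 for Nlrc5. The other genes named were chosen after their values were seen.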

Additional observations from a re-analysis of the deposited data

How the results depend on the processing

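No direction of the 10 genes in Lyso against WT, Tumor against WT, Lyso against the relapsed lines or Tumor against the relapsed lines changed under the alternatives run. Calls did. Counts of called genes among the 10 fell under edgeR's glmTreat, which tests against a log2 fold change of 1, to 5 for Tumor against WT, 4 for Lyso against WT, 3 for Tumor against the relapsed lines, 0 for Tumor against Lyso and 5 for Lyso against the relapsed lines. A minimum of 10 counts in every library kept 4 of the 10 genes in comparisons with WT, and called 2 in Tumor and 4 in Lyso. WT 3 as the only WT library left 3 in Lyso. No filter on low counts called 1, Tap2, in the relapsed lines. Fitting the compared groups alone gave 5 for Tumor against the relapsed lines, and DESeq2 gave 3 for Tumor against Lyso. Leaving out 1 library gave 5 to 9 genes for Tumor against the relapsed lines and 0 to 6 for Tumor against Lyso. Among the 72 other genes, glmTreat called 3 in Tumor and 1 and 3 in Tumor and Lyso against the relapsed lines, no filter 7 in Lyso and 1 in the relapsed lines, the adjusted p alone 9 in Tumor against the relapsed lines and 15 against Lyso, and the compared groups alone 1 in Tumor against the relapsed lines. With 1 library left out these counts ran from 3 to 6 in Tumor, 3 to 5 in Lyso and 0 to 1 in the relapsed lines against WT, and from 1 to 5 in Tumor against the relapsed lines. Apart from the filters and subsets, which drop genes or libraries by construction, the cause was not tested.

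Signs changed for some log2 fold changes and 1 ratio that were not called in the comparison of the relapsed lines with WT, and for Psmb9 in Tumor against Lyso. With WT 3 as the lone control of the relapsed lines, log2 changes were -0.09 for Tap1, -0.49 for Tapbp, -0.23 for Psme1, -0.42 for Psme2 and -0.43 for Erap1, and with library size as the only scaling -0.016 for Tapbp and -0.025 for Psme1. With 1 library left out they ran from -0.23 to 0.49 for Tapbp, -0.67 to 0.18 for Psmb10, -0.21 to 0.22 for Psme1, -0.11 to 0.66 for Psme2 and -0.19 to 0.57 for Erap1, and the log2 ratio of Psmb10 to Psmb7 from -0.41 to 0.54. Psmb9 in Tumor against Lyso ran from -1.36, without Tumor 4, to 0.58. Library size alone moved the median of all genes in Lyso against WT by -0.10 on the log2 scale.

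Same-numbered libraries of WT, Lyso and Tumor did not deviate together (correlations of -0.008 to 0.053), and the relapsed lines carry no shared numbers. A replicate block on these numbers called 9 of the 10 genes in Tumor against Lyso, with Psmb9 at -1.51, and 5 of the 72 other genes in Lyso against WT. Tumor 4 was alone under its number, so the block set it aside and the Tumor estimates came from Tumor 1 and Tumor 3. The first of these counts is thus no measure of pairing alone. The block moved no other count by over 1.5 times. The depth of WT 1 and WT 2 limits what can be said of Psmb8, Psmb9 and Nlrc5 in WT.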
